A study of Mus musculus with 7 samples.

Results

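The genes examined here are 6 members of the neurotrophin system, found by symbol among 36666 gene entries of an mRNA sequencing study of mouse cerebral cortex. Bdnf and Ntf3 encode the growth factors BDNF and neurotrophin-3. Ntrk2 and Ntrk3 encode their receptors TrkB and TrkC. Ngfr encodes p75NTR, and Sort1 encodes sortilin. The study compared 3 young adult cortices with 4 cortices at embryonic day 17, all from C57BL/6 mice with no treatment or genetic change stated in the labels. Ntrk2, Ntrk3 and Sort1 also had 60 of the 86425 exon entries, namely 20, 19 and 21. The transcript forms of Bdnf, Ntf3 and Ngfr were not analysed here. The question was how the genes, and the alternative forms of the receptors, differ between the adult and the late embryonic cortex.

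Neurotrophins are secreted proteins, made as larger precursors, that support the survival, growth and synaptic function of neurons. Full-length Trk receptors carry a tyrosine kinase inside the cell and pass the signal through the Ras and MAP kinase, PI3 kinase and phospholipase C gamma routes. Both Ntrk2 and Ntrk3 also give truncated receptors, which keep the outer ligand-binding part and the membrane segment and end in a short tail with no kinase. Truncated TrkB of the T1 type is known as the main TrkB form of astrocytes. The p75NTR protein binds all neurotrophins and, with sortilin as co-receptor, their precursors, while sortilin also sorts BDNF inside cells.

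The sequences where the receptor forms part are shown first, because reads on these exons separate the forms in the results below. They come from GENCODE M21 transcripts (GRCm38), are read along the coding strand, and were matched to the deposited exons by exon starts. In the Trk sequences the lower-case bases are the last 15 of the exon that both forms share. Capitals are the bases that only the named form holds, all 35 coding bases for truncated TrkB and the first 60 coding bases for the others.
Ntrk2 truncated form: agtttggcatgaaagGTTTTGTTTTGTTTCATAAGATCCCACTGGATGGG
Ntrk2 kinase form: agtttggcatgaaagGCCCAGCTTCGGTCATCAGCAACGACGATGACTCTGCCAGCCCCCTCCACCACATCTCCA
Ntrk3 truncated form: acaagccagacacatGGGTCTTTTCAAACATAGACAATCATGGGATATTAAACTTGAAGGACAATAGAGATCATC
Ntrk3 kinase form: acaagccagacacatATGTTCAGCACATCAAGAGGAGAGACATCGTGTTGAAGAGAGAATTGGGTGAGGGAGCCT
From the point of divergence the kinase form of Ntrk2 goes on for 1070 coding bases, against 35 in the truncated form. The whole coding regions hold 821 codons in the kinase form and 476 in the truncated form. For Ntrk3 the kinase form goes on for 890 bases and the truncated form for 251, in coding regions of 825 codons for the shortest annotated kinase form and 612 for the truncated form.

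Levels are in CPM, counts per 1000000 gene reads of the same sample, taken from read counts recovered from the deposited values. The 3 adult samples held 22734167 to 23606499 reads in genes, and the 4 embryonic samples 18444240 to 22575875. Differences are adult minus embryonic on the log2-like deposited scale, with limma's moderated test and Benjamini-Hochberg adjustment over all 22828 genes tested. On that scale 69.7% of all genes passed the threshold of 0.05, with 35.8% (8180 genes) higher and 33.9% (7736 genes) lower in adult cortex. Centring the samples on their medians moved every difference by −0.18 and turned this balance, to 7001 genes higher and 9047 lower. A call by itself therefore sets no gene apart here, and the sizes of the differences carry more of the description. All 6 genes were tested, and 5 passed, with Bdnf, Ntrk2 and Sort1 higher and Ntf3 and Ngfr lower in adult cortex.

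Markers of cell classes also moved between the ages. The summed level of 7 astrocyte markers, all 7 higher in adult cortex, was 4666 to 5574 CPM in adult samples and 304 to 323 CPM in embryonic samples. All 5 oligodendrocyte markers were higher, at 3725 to 6684 CPM in adult and 48.5 to 51.4 CPM in embryonic samples, and 5 of 6 radial glia markers were lower, at 110 to 170 CPM in adult and 915 to 1020 CPM in embryonic samples. Of 4 neuron markers in the table, 3 were higher and Tubb3 was lower, with sums of 5401 to 5616 CPM in adult and 2282 to 2524 CPM in embryonic samples. Markers of neighbouring tissue differed by tissue. All 5 choroid plexus markers were higher, at 586 to 723 CPM in adult against 1.36 to 2.83 CPM in embryonic samples. All 6 striatal markers were higher too, at 726 to 843 CPM in adult and 89.3 to 98.0 CPM in embryonic samples. Of 5 hippocampus markers, 3 were higher, Zbtb20 was lower and 1 was not called. Their sums overlapped, at 344 to 425 CPM in adult and 253 to 346 CPM in embryonic samples. The part of these classes in the results below was not tested, and in whole tissue a change in the number of cells of a type and a change in RNA per cell cannot be told apart.

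Bdnf, the ligand of TrkB, was the member with the largest difference in level. It had 29.2, 24.99 and 27.5 CPM in the adult samples, against 1.52, 1.64, 2.35 and 2.68 CPM in the embryonic samples. Every adult sample lay far above every embryonic one. The means were 27.2 ± 2.11 CPM in adult (SD, n = 3) and 2.05 ± 0.560 CPM in embryonic cortex (SD, n = 4), a ratio of 13.3. The difference on the deposited scale was 3.53 (SE 0.16, limma adjusted p = 1.79e-10). The embryonic values rest on 28 to 58 reads per sample and the adult values on 590 to 669.

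Ntf3, the ligand of TrkC, went the other way and was scarce at both ages. It had 1.96, 1.57 and 1.32 CPM in adult samples and 5.26, 2.61, 5.03 and 3.23 CPM in embryonic samples. The groups did not overlap, although the embryonic samples differed among themselves by more than the lowest of them differed from the highest adult. The means were 1.62 ± 0.325 CPM in adult and 4.04 ± 1.31 CPM in embryonic cortex, and the embryonic mean was 2.50 times the adult one. The difference was −1.02 (SE 0.22, limma adjusted p = 0.000912), with 30 to 45 reads per adult sample and 59 to 107 per embryonic sample.

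Ntrk2, which encodes the BDNF receptor TrkB, had 768, 669 and 738 CPM in adult samples and 239, 225, 246 and 265 CPM in embryonic samples. Adult samples were well above embryonic ones, and both groups were tight. The mean was 725 ± 50.8 CPM in adult and 244 ± 16.7 CPM in embryonic cortex, a ratio of 2.97 and a difference of 1.65 (SE 0.08, limma adjusted p = 2.08e-10).

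Ntrk3, which encodes the neurotrophin-3 receptor TrkC, showed no such difference in its total level. It had 57.4, 49.4 and 61.8 CPM in adult samples and 64.1, 64.2, 49.97 and 59.6 CPM in embryonic samples, so the groups overlapped. The means were 56.2 ± 6.27 CPM in adult and 59.5 ± 6.70 CPM in embryonic cortex. The difference of 0.01 (SE 0.10, limma adjusted p = 0.966) had a 95% interval of −0.22 to 0.23, and its sign changed with the scaling and with single samples left out.

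Ngfr, the p75NTR gene, was lower in adult cortex. It had 3.45, 6.14 and 4.13 CPM in adult samples, against 11.4, 11.6, 11.3 and 12.2 CPM in embryonic samples. The embryonic samples were close together, and adult replicate 2 was the highest of the adults, still well below them. The means were 4.57 ± 1.40 CPM in adult and 11.6 ± 0.386 CPM in embryonic cortex, and the embryonic mean was 2.54 times the adult one (difference −1.19, SE 0.15, limma adjusted p = 8.93e-06). Reads numbered 79 to 145 per adult sample and 210 to 263 per embryonic sample. Basal forebrain cholinergic neurons, which are known for p75NTR, gave no uniform change of their own markers. Of 4 tested, Chat and Slc5a7 were higher and Lhx8 and Gbx1 lower in adult cortex, with sums of 11.7 to 15.1 CPM in adult and 4.09 to 15.1 CPM in embryonic samples. Markers of Cajal-Retzius cells, early neurons of the cortical surface, moved the same way as Ngfr. All 5 were lower in adult cortex, with sums of 97.7 to 118 CPM in adult and 342 to 456 CPM in embryonic samples. Of 6 subplate neuron markers, 4 were higher, 1 was lower and 1 was not called. Their sums were 132 to 174 CPM in adult and 72.1 to 93.9 CPM in embryonic samples. The part of these cell classes in the Ngfr difference was not tested.

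Sort1, the sortilin gene, had 598, 507 and 559 CPM in adult samples and 221, 210, 193 and 210 CPM in embryonic samples. As for Ntrk2, the groups were far apart. The mean was 555 ± 45.2 CPM in adult and 209 ± 11.5 CPM in embryonic cortex, a ratio of 2.66 and a difference of 1.49 (SE 0.08, limma adjusted p = 6.09e-10).

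**Figure D1:**
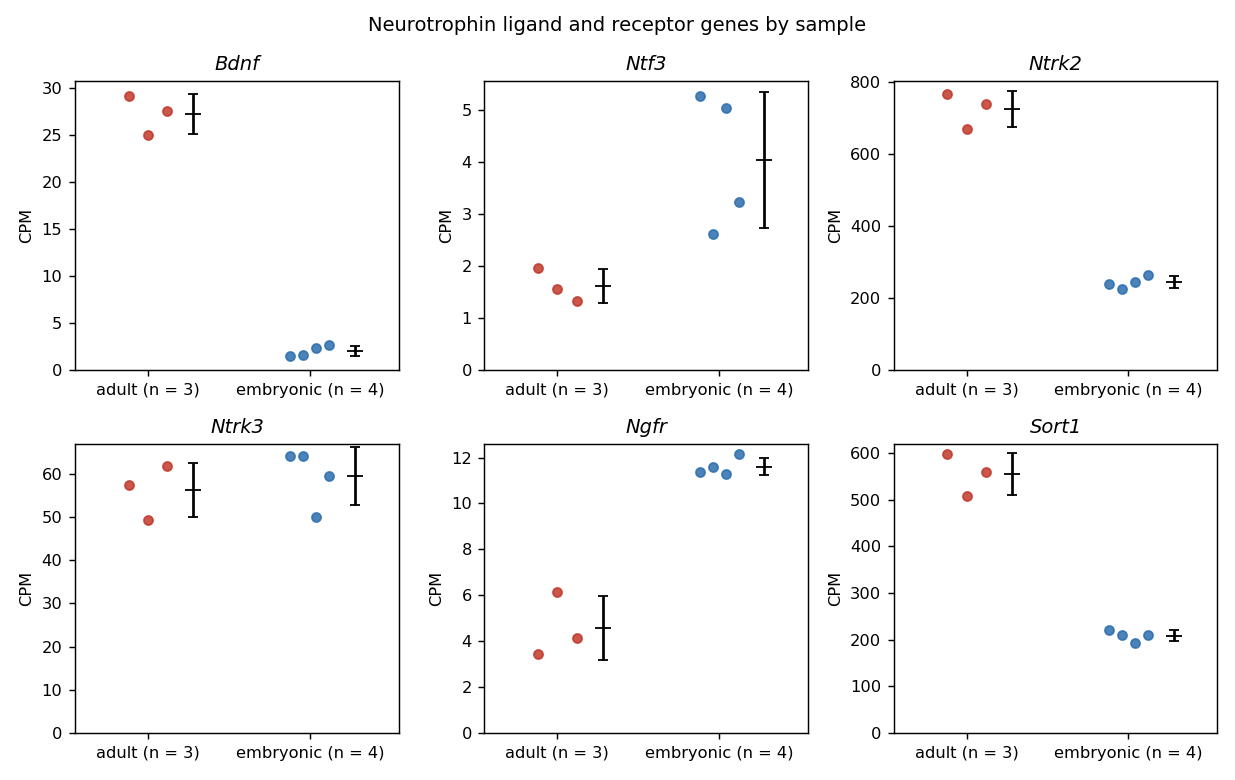
Level of each member gene in every sample, in CPM, with adult samples in red and embryonic samples in blue; the black bar beside each group is its mean and SD (n = 3 adult, n = 4 embryonic). Bdnf, Ntrk2 and Sort1 were higher and Ntf3 and Ngfr lower in every adult sample than in every embryonic sample, and the Ntrk3 groups overlapped.

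The exon entries allowed the forms of 3 of these genes to be followed. The deposited exon value comes from the gene's reads divided by the exon's reads, rounded to a whole number, so each exon is described here by its share of the gene's reads, as 100 divided by that whole number. Shares are therefore coarse where an exon holds much of the gene. Within each gene, limma's diffSplice set every exon against the rest and called 4.85% of 86161 exons, 2.68% with a larger and 2.17% with a smaller share in adult cortex. Exons are numbered in transcript order among the deposited entries, with their start in the mm9 build. In Ntrk2, 9 of 20 exons were called, 4 with a larger and 5 with a smaller share in adult cortex. In Ntrk3 and in Sort1, 1 exon each was called, of 19 and 21, both with a smaller share. A test per gene (Simes) called 28.8% of 7275 genes, and it called Ntrk2 (adjusted p = 1.35e-08), Ntrk3 (adjusted p = 0.0231) and Sort1 (adjusted p = 2.29e-11). The test scores the rounded value, in which a larger number is a smaller share, and gives all exons of a gene 1 standard error, 0.35 for Ntrk2, 0.61 for Ntrk3 and 0.42 for Sort1.

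The truncated-form exon of Ntrk2 held a larger share in adult cortex. Exon 14, which starts at 59033384 on chromosome 13 (plus strand) and ends the truncated T1 transcript, had a rounded quotient of 3 in all 3 adult samples and of 9, 8, 9 and 10 in the embryonic samples. Its share was thus 33.3% in each adult sample, where rounding allows 28.6 to 40%, and 11.1, 12.5, 11.1 and 10% in the embryonic samples, where rounding allows 9.52 to 13.3%. Even with rounding, no adult value reached an embryonic one. Relative to the other exons of the gene, exon 14 differed by −2.66 on the deposited exon scale (diffSplice adjusted p = 4.62e-09). A negative difference is a larger share in adult cortex. In absolute terms the exon had 256, 223 and 246 CPM in adult samples against 26.5, 28.1, 27.4 and 26.5 CPM in embryonic samples, an 8.91-fold difference that rounding could take from 7.21-fold to 11.3-fold.

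The 6 exons of the kinase form, exons 15 to 20, all had a lower mean share in adult cortex, at 0.557 to 0.776 times the embryonic share, and 4 of them passed the test. Exon 15 (start 59087163), the first after the forms part, held 1.67 ± 0.365% in adult and 3.0 ± 0.213% in embryonic cortex (SD, diffSplice adjusted p = 7.70e-08). Exon 16 (start 59139328) held 1.44 ± 0.153% in adult and 2.15 ± 0.0598% in embryonic cortex. Exon 18 (start 59161589) held 2.02 ± 0.468% in adult and 3.19 ± 0.527% in embryonic cortex, and exon 19 (start 59227794) held 1.18 ± 0.131% in adult and 2.08 ± 0.150% in embryonic cortex. The kinase exons that passed thus had 0.557 to 0.669 times their embryonic share. Exon 17 (start 59155654) did not pass, with 2.02 ± 0.113% in adult and 2.6 ± 0.121% in embryonic cortex (adjusted p = 0.0586), but it did without adult replicate 3 (adjusted p = 0.0463). With all samples, exon 20 (start 59229529), the last exon of the kinase form, did not pass either, with 14.3% in every adult sample and 21.3 ± 2.50% in embryonic cortex (adjusted p = 0.0932), although its groups did not overlap.

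**Figure D2:**
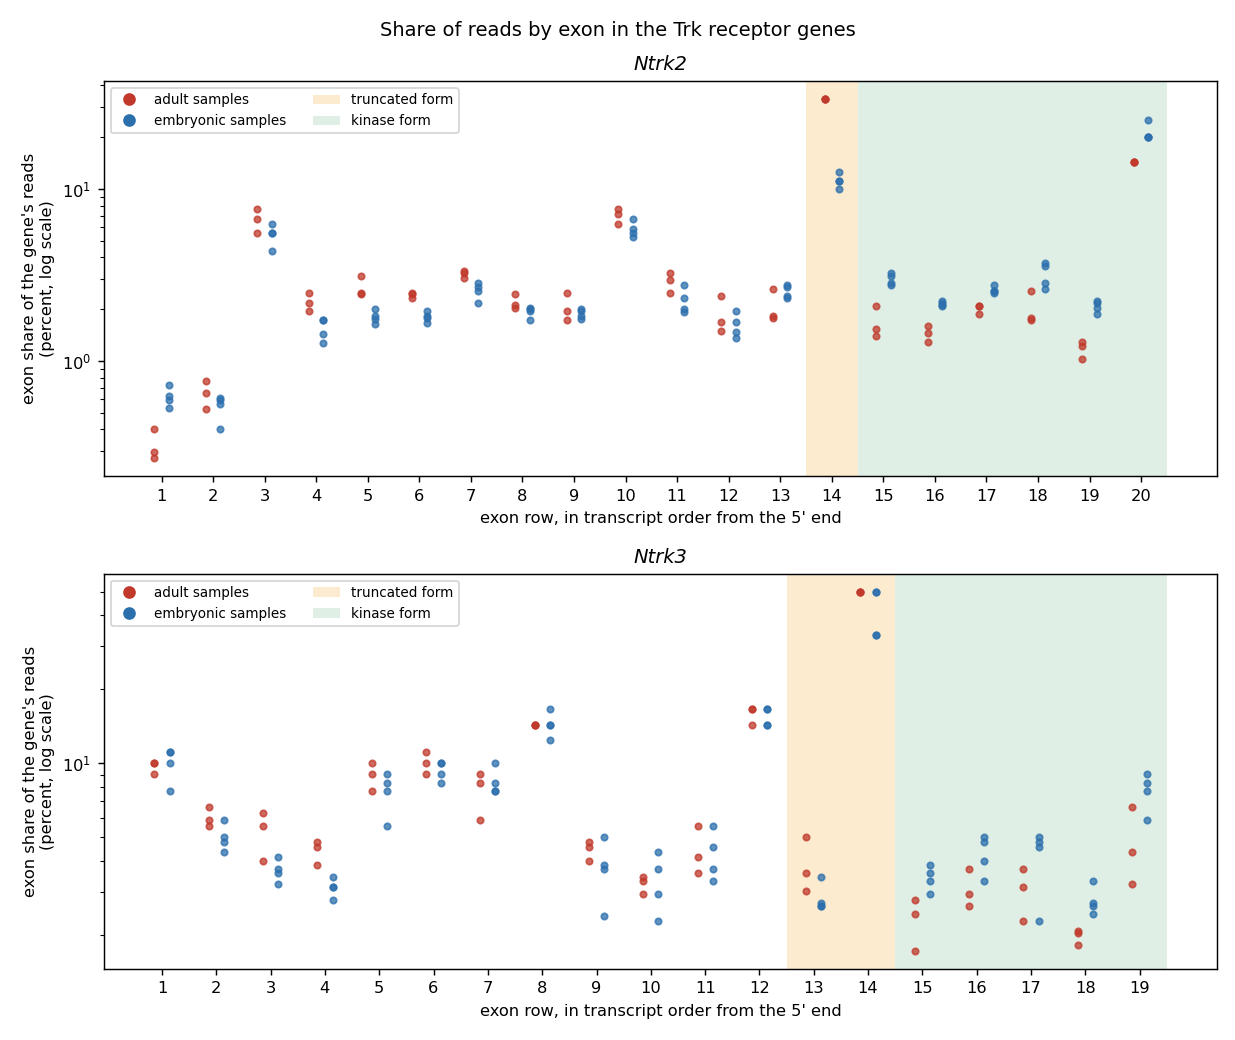
Share of the gene's reads held by each exon of Ntrk2 (top) and Ntrk3 (bottom), in percent on a log axis, with exons in transcript order along the bottom axis, adult samples in red on the left and embryonic samples in blue on the right of each position. Shading marks exons of the truncated and of the kinase form; in Ntrk2 the truncated exon 14 stood at 33.3% in adult samples and at 10 to 12.5% in embryonic samples, and kinase exons 15 to 20 lay lower in adult samples.

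A smaller share did not mean fewer reads on the kinase exons, since the gene as a whole was 2.97-fold higher in adult cortex. Summed over the 6 exons, the kinase form had 166, 155 and 171 CPM in adult samples and 79.2, 74.7, 92.3 and 88.1 CPM in embryonic samples. That is 1.96-fold higher in adult cortex, which rounding could take from 1.73-fold to 2.21-fold. The 10 exons shared by both forms together were 3.59-fold higher, or 3.47-fold to 3.71-fold with rounding. The ratio of truncated-form to kinase-form reads was 1.54, 1.44 and 1.44 in adult samples and 0.335, 0.376, 0.296 and 0.301 in embryonic samples. The mean ratio was 1.48 ± 0.0588 in adult and 0.327 ± 0.0370 in embryonic cortex, and the mean of the log2 ratio differed by 2.18, or 4.53-fold. In a two-sided exact permutation test over the 35 possible assignments of ages to samples, p was 0.0286, the smallest that this design allows, and 0.0571 after adjustment over the ratios of Ntrk2 and Ntrk3. With every rounded value moved by 0.5 against the difference, the log2 difference was 1.7. The ratio depends on the lengths of the exons, so only its difference between the ages is informative, not whether it lies above 1. The astrocyte markers given above moved in the same direction as the truncated form, and their part in it was not tested.

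Other called Ntrk2 exons lay before the split. Exon 4 (start 58939157), exon 5 (start 58939346) and exon 6 (start 58944237), which code for the outer part of the receptor, held 2.21 ± 0.272, 2.69 ± 0.380 and 2.42 ± 0.0885% in adult cortex. In embryonic cortex they held 1.54 ± 0.228, 1.80 ± 0.151 and 1.81 ± 0.121% (adjusted p = 0.00909, 0.000944 and 0.0383). Exon 1 (start 58907957) lay before the exons shared by both forms and inside an annotated exon, with no annotated start of its own. It held 0.325 ± 0.0703% in adult and 0.620 ± 0.0798% in embryonic cortex (adjusted p = 0.0266), on about 28 to 36 reads per embryonic sample. Each of these 4 calls was lost when some single libraries were left out. Exon 1 lost it without embryonic replicates 1 or 4 or adult replicate 1, and exon 4 without embryonic replicates 2 or 3 or adult replicate 1. Exon 5 lost it without adult replicate 1, and exon 6 without any 1 of the samples other than adult replicate 3. The highest adjusted p among these was 0.211, for exon 6. The calls of exons 14, 15 and 19 held under every alternative run, with limma adjusted p of at most 0.000197, 0.0405 and 0.0258.

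Ntrk3 had the same arrangement of forms, with 2 truncated-form exons followed by 5 kinase-form exons, but a less certain difference. The truncated form was represented by exon 13 (start 85449178, 135 bases) and exon 14 (start 85445577) on chromosome 7 (minus strand). Exon 13 held 3.87 ± 1.02% in adult and 2.85 ± 0.398% in embryonic cortex (adjusted p = 0.202). Exon 14 had a rounded quotient of 2 in all 3 adult samples and of 3, 3, 2 and 2 in embryonic samples, or 50% against 41.7 ± 9.62% (adjusted p = 0.890). Neither passed the test, and the second is at the limit of what the rounded values resolve.

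The kinase-form exons 15 to 19 of Ntrk3 all had a lower mean share in adult cortex, at 0.613 to 0.732 times the embryonic share, and 1 of the 5 passed. It was the last, exon 19 (start 85337000), whose start lay inside an annotated exon and matched no annotated start. It held 6.67, 3.23 and 4.35% in adult samples and 9.09, 7.69, 5.88 and 8.33% in embryonic samples. The groups overlapped, in that adult replicate 1 lay above embryonic replicate 3. The means were 4.75 ± 1.75% in adult and 7.75 ± 1.37% in embryonic cortex (diffSplice difference 2.29, adjusted p = 0.00984). The call was lost without adult replicate 2 (adjusted p = 0.383) and without embryonic replicate 1 (adjusted p = 0.0639). The first kinase exon of Ntrk3, exon 15 (start 85405170), held 2.31 ± 0.538% in adult and 3.42 ± 0.384% in embryonic cortex and did not pass (adjusted p = 0.0744), but it did without embryonic replicate 3 (0.0391) or adult replicate 1 (0.0481). Exon 17 (start 85392041) passed without embryonic replicate 3 (adjusted p = 0.0120).

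The summed truncated-form exons of Ntrk3 averaged 30.3 ± 3.34 CPM in adult and 26.1 ± 4.13 CPM in embryonic cortex (exact permutation p = 0.229). The summed kinase-form exons averaged 8.61 ± 2.02 CPM in adult and 13.5 ± 3.48 CPM in embryonic cortex (exact permutation p = 0.114). Their ratio was 3.34, 4.20 and 3.26 in adult samples and 1.41, 1.61, 3.12 and 2.15 in embryonic samples. The groups did not overlap, but embryonic replicate 3 was close to the adults. The log2 ratio differed by 0.85 (1.81-fold, exact permutation p = 0.0571, the same after adjustment), which misses the threshold. With rounding moved by 0.5 against the difference it was 0.17, mostly because exon 14 has a quotient of 2 or 3. A ratio that leaves out the coarse last exons, exon 13 over exons 15 to 18, was chosen after the data were seen. It was 0.510, 0.375 and 0.254 in adult samples and 0.165, 0.180, 0.240 and 0.209 in embryonic samples (log2 difference 0.89, exact permutation p = 0.0286). Whether Ntrk2 and Ntrk3 differ from each other in this ratio was not tested.

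**Figure D3:**
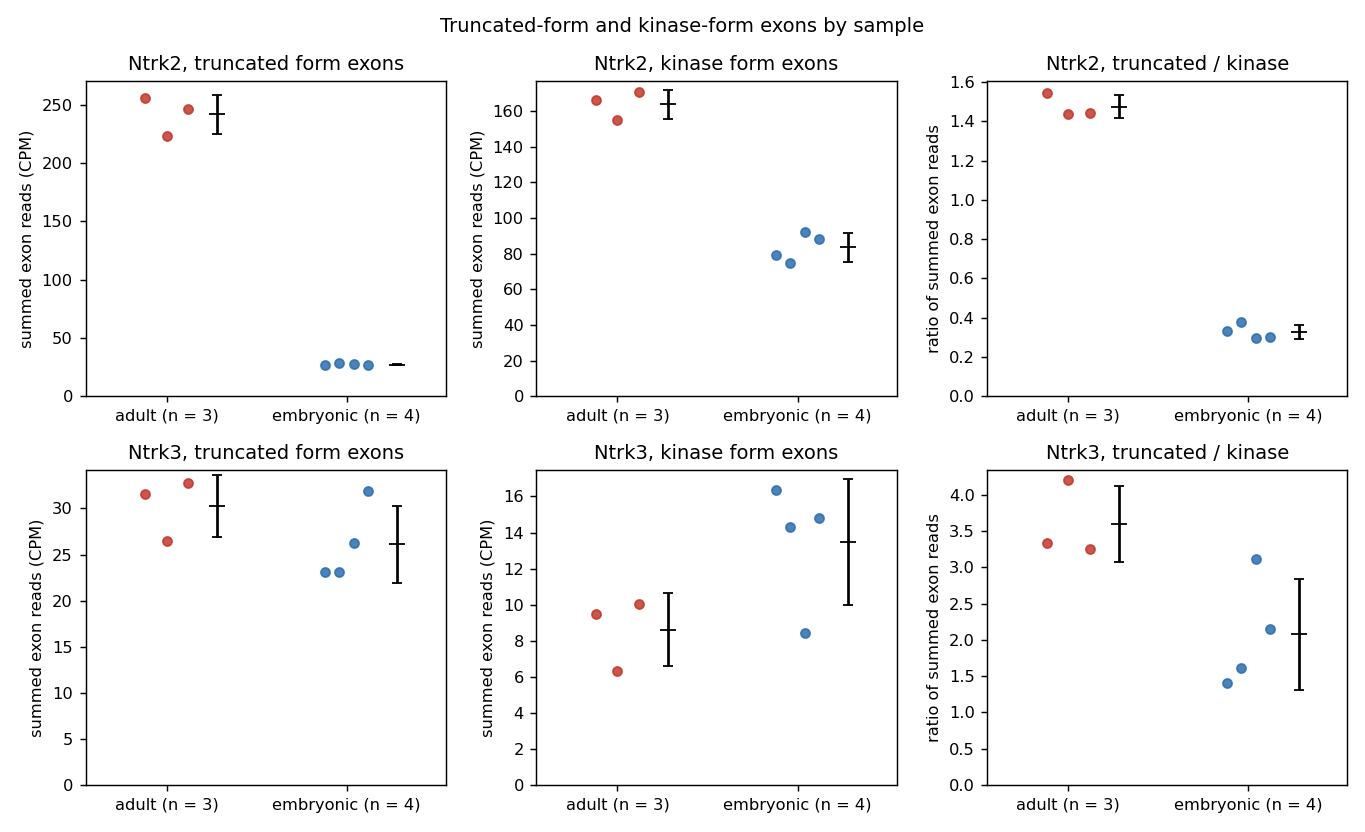
Summed reads on truncated-form exons (left), on kinase-form exons (middle), both in CPM, and their ratio (right), for Ntrk2 (top) and Ntrk3 (bottom), 1 point per sample with mean and SD beside each group. For Ntrk2 the truncated form was 8.91-fold and the kinase form 1.96-fold higher in adult samples; for Ntrk3 both sums overlapped between the groups.

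In Sort1, 1 of 21 exons passed the test. Exon 18, which starts at 108158390 on chromosome 3 (plus strand), is an exon of 99 bases that some Sort1 transcripts hold and others skip. It lies between exon 17 (start 108157051, 109 bases) and exon 19 (start 108159149, 107 bases). It is shown here with 15 bases of each neighbouring exon in lower case and the alternative exon in capitals.
Sort1 alternative exon: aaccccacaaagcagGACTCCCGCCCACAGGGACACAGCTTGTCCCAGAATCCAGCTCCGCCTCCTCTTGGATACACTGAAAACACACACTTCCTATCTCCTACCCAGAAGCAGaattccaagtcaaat
The annotated coding regions with and without it are 2574 and 2475 bases long and otherwise identical. The exon adds 33 codons in frame, with 0 stop codons among them.

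The rounded quotient of exon 18 was 211, 174 and 235 in adult samples and 65, 47, 42 and 53 in embryonic samples. Its share was 0.474, 0.575 and 0.426% in adult samples, against 1.54, 2.13, 2.38 and 1.89% in embryonic samples, with no overlap. The means were 0.491 ± 0.0761% in adult and 1.98 ± 0.359% in embryonic cortex, and the embryonic share was 4.04 times the adult one (diffSplice difference 3.72, adjusted p = 7.75e-12). The call held under every alternative run, with limma adjusted p of at most 0.00663. With the gene itself 2.66-fold higher in adult cortex, reads on the exon averaged 2.71 ± 0.289 CPM in adult and 4.11 ± 0.547 CPM in embryonic cortex.

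Per base, exon 18 had 13.5, 19.0 and 15.8% of the mean of its neighbours in adult samples. In embryonic samples it had 52.2, 79.8, 98.3 and 77.4%. The averages were 16.1 ± 2.80% in adult and 76.9 ± 18.9% in embryonic cortex (exact permutation p = 0.0286, the smallest the design allows). This measure was added after the exon test had been seen and uses the same reads, so it restates the call as an approximate inclusion level and does not test it again. Exon 17 held 4.20 ± 0.777% in adult and 3.46 ± 0.432% in embryonic cortex, and exon 19 held 2.53 ± 0.152% in adult and 2.26 ± 0.276% in embryonic cortex, and neither passed (adjusted p = 0.237 and 0.714). The last exon of Sort1, exon 21 (start 108160147), had a quotient of 1 in all adult samples and of 2, 2, 1 and 2 in embryonic samples, too coarse to compare.

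**Figure D4:**
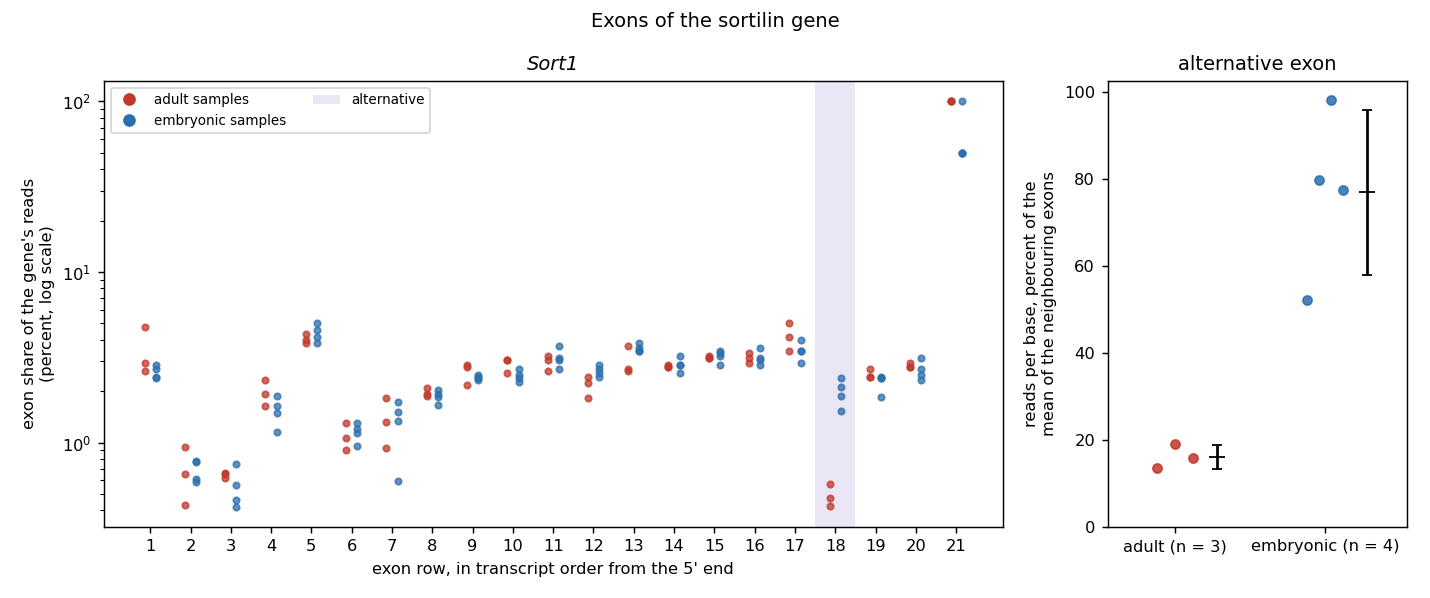
Left, share of Sort1 reads held by each of the 21 exons, in percent on a log axis, with adult samples in red on the left and embryonic samples in blue on the right of each position; right, reads per base on the alternative exon as percent of the mean of its neighbours, with mean and SD. Exon 18 stood at 0.426 to 0.575% in adult samples and at 1.54 to 2.38% in embryonic samples.

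Other genes of the system were followed in 5 lists with 105 distinct genes, of which 103 were tested. Of these, 44 were higher and 39 lower in adult cortex, against 35.8% and 33.9% of all genes tested. With samples centred on their medians the balance turned, as it did over all genes, to 36 higher and 47 lower. Ligands and the enzymes that process or carry them had 9 of 15 tested genes higher and 2 lower, and a median difference of 1.19, against 0.03 over all genes. The largest differences were in Pcsk2 and Pcsk1, the prohormone convertases of regulated secretion. Pcsk2 had 383 ± 20.4 CPM in adult and 30.8 ± 4.59 CPM in embryonic cortex (difference 3.70, limma adjusted p = 1.69e-12), and Pcsk1 had 27.1 ± 3.10 CPM in adult and 1.76 ± 0.294 CPM in embryonic cortex (difference 3.68, adjusted p = 2.62e-11). Cpe, a sorting receptor and carboxypeptidase of secretory granules, had 2273 ± 98.1 CPM in adult and 329 ± 28.2 CPM in embryonic cortex (difference 2.87). Furin, the general convertase of the secretory pathway, had 42.6 ± 2.56 CPM in adult and 42.2 ± 1.01 CPM in embryonic cortex and was not called (adjusted p = 0.294). The genes lower in adult cortex were Mmp9, a matrix protease, with 1.29 ± 0.284 CPM in adult and 10.4 ± 2.10 CPM in embryonic cortex (difference −2.56), and Pcsk7, another convertase, with 25.1 ± 5.42 CPM in adult and 39.9 ± 3.04 CPM in embryonic cortex (difference −0.59).

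Ntf5, which encodes neurotrophin-4, the other TrkB ligand, was rare. It had 12, 11 and 5 reads in adult samples and 1, 0, 1 and 1 in embryonic samples (difference 2.03, limma adjusted p = 0.00171).

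All 11 other receptors and co-receptors passed the test, as did 69.7% of all genes. Of the 11, 8 were higher and 3 lower in adult cortex, with a median difference of 1.46. Adam10 was among those lower (−0.28), with groups that overlapped. Sorcs3 and Sorcs2, of the same family as sortilin, had the highest differences. Sorcs3 had 57.7 ± 15.7 CPM in adult and 13.1 ± 1.86 CPM in embryonic cortex (2.13), and Sorcs2 had 72.9 ± 7.13 CPM in adult and 19.3 ± 0.730 CPM in embryonic cortex (1.95). Kidins220, a scaffold that binds Trk receptors and p75NTR, was lower in adults, with 436 ± 13.9 CPM in adult and 1017 ± 28.3 CPM in embryonic cortex (−1.14). Adam17, a protease that cleaves p75NTR, had 19.7 ± 2.81 CPM in adult and 28.8 ± 0.880 CPM in embryonic cortex (−0.45).

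Trk adaptors and signalling genes were divided, with 17 of 50 higher, 22 lower and 11 not called, and a median difference of −0.08. Over all genes 35.8% were higher and 33.9% lower. Map2k1, the kinase MEK1, had 258 ± 15.4 CPM in adult and 23.3 ± 1.39 CPM in embryonic cortex (difference 3.51, limma adjusted p = 2.72e-13). Mapk7, the kinase ERK5, had 18.4 ± 1.84 CPM in adult and 101 ± 6.95 CPM in embryonic cortex (−2.32). The phospholipases C gamma went opposite ways. Plcg2 had 5.32 ± 0.806 CPM in adult and 1.03 ± 0.193 CPM in embryonic cortex (2.08), and Plcg1, the one known to dock on TrkB, had 98.4 ± 11.1 CPM in adult and 299.9 ± 11.4 CPM in embryonic cortex (−1.52). Sh2b2, an adaptor of receptor kinases, had 5.11 ± 0.900 CPM in adult and 38.9 ± 2.0 CPM in embryonic cortex (−2.70). All 4 Shc adaptor genes were higher in adult cortex, by 0.37 (SE 0.11) for Shc1 up to 1.20 for Shc3. The shift of −0.18 from centring on sample medians is large beside the Shc1 difference.

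Effectors of p75NTR had 10 of 16 genes lower, 3 higher and 3 not called, with a median difference of −0.33. Over all genes 33.9% were lower and 35.8% higher. Prdm4, a transcriptional regulator that binds p75NTR, had 29.0 ± 2.83 CPM in adult and 63.5 ± 3.53 CPM in embryonic cortex (difference −1.03, limma adjusted p = 1.01e-07). The genes higher in adult cortex were Mapk9, the kinase JNK2, with 249.8 ± 8.55 CPM in adult and 121 ± 5.25 CPM in embryonic cortex (1.12), Ripk2 (0.50) and Irak1 (0.38). Only Mapk9 remained higher when samples were centred on their medians.

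Regulators of Bdnf transcription had 7 of 12 genes higher, 3 lower and 2 not called, with a median difference of 0.23. Over all genes 35.8% were higher and 33.9% lower. After centring on sample medians they were 4 higher and 5 lower, a shift that follows the one over all genes (7001 higher and 9047 lower). Bhlhe40, a repressor known to bind a Bdnf promoter, had 84.3 ± 3.60 CPM in adult and 10.97 ± 1.98 CPM in embryonic cortex (difference 2.95, limma adjusted p = 5.52e-11). Npas4, an activator induced by neuronal activity, had 11.8, 29.6 and 8.36 CPM in adult samples and 4.23, 4.87, 4.85 and 4.39 CPM in embryonic samples (1.61, adjusted p = 0.000211). Rest, a repressor of neuronal genes, had 7.18 ± 1.22 CPM in adult and 20.6 ± 3.11 CPM in embryonic cortex (−1.36). Usf1, an activator at E-box sites, had 34.5 ± 1.34 CPM in adult and 79.0 ± 5.12 CPM in embryonic cortex (−1.09). Creb1, a well known activator of Bdnf, had 58.5 ± 5.68 CPM in adult and 116 ± 13.8 CPM in embryonic cortex (−0.90). Npas4 belonged to 10 activity-regulated genes that were all highest in adult replicate 2, with sums of 340 to 1360 CPM in adult and 43.7 to 49.4 CPM in embryonic samples. Bdnf itself was lowest of the adults in that replicate, and without it the counts over all 5 lists were 42 higher and 37 lower.

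**Figure D5:**
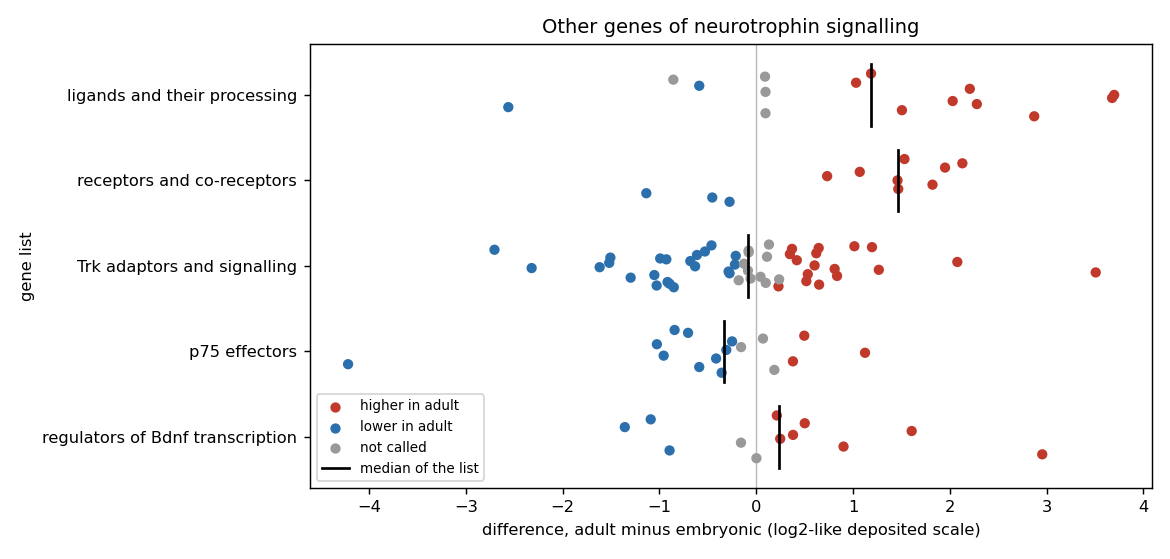
Difference of each tested gene of the 5 lists, adult minus embryonic on the log2-like deposited scale, with red points higher in adult cortex, blue points lower and grey points not called; the black line is the median of each list. Medians were 1.19 for ligands and their processing, 1.46 for receptors and co-receptors, −0.08 for Trk adaptors and signalling, −0.33 for p75 effectors and 0.23 for regulators of Bdnf transcription.

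The genes with the pattern most like each member were found by the root mean square distance of the centred deposited values over all 7 samples. For Bdnf they were Rasgrf2 (0.09), Alox8 (0.12) and Hebp1 (0.13), and for Ntf3 they were Dkk2 (0.14), Gm8724 (0.15) and Zfp583 (0.19). Ntrk2 was nearest to 5330417C22Rik (0.04), Rgs17 (0.04) and Serinc3 (0.05), and Ntrk3 to Prkd1 (0.05), Atp11a (0.05) and E430018J23Rik (0.05). Ngfr was nearest to Gm11850 (0.05), Ncan (0.07) and Cd93 (0.09), and all of these were, like Ngfr, highest among the adults in replicate 2. Sort1 was nearest to Fgfr1op2 (0.04), Rock2 (0.05) and Spsb1 (0.06). Gm8724 had at most 8 reads in any sample.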

How the data were processed

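RNA of 7 cortices was sequenced from mRNA libraries, 3 adult and 4 embryonic. The labels do not say whether each sample is 1 animal, and the p-values reflect sample-to-sample spread, which may be technical. In diffSplice that spread is pooled over the exons of a gene, which are not extra samples, so its p-values can be too small. The submitters' processing notes name the mm9 build and SAMtools 0.1.7a, HTSeq 0.5.3p3, TopHat 1.0.13, CASAVA 1.7.1 and Bowtie 0.12.7.0. Whether counting used strand is not stated there, so antisense reads cannot be told apart.

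The gene values deposited by the authors follow a log2-like, variance-stabilized scale that compresses low levels. The exon values are a score that the authors made, per the file headers, from 1 over a ratio and then variance-stabilized. From the values, that number is gene reads over exon reads, rounded: 58779 values could tell rounding from truncation, and 100% of them were reached by rounding. Whole-number reads were recovered from the gene values, more than 99.9% within 0.1 of a whole number, for CPM and shares only. Genes with the most reads may be off, by an amount that was not measured. Tests used the deposited values in limma 3.58.1 (R 4.3.3) (trended variance, 7 samples, no covariate), two-sided, at 0.05. Entries that stood at the column minimum in over 3 samples were left out. The tests were tried on simulated data first. Replicates differed by more than counting error.

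Exon starts were matched to GENCODE M21 by 1 shared offset per gene, for 18 of 20 Ntrk2, 17 of 19 Ntrk3 and 20 of 21 Sort1 exons; the others lay inside an annotated exon or within 1 base of its start. Members and lists were chosen with earlier results of these data known. Genes named beside the members were the 2 called genes per list and direction with the largest difference among those whose groups did not overlap, the 3 nearest patterns per member, and a few (Cpe, Furin, Ntf5, Adam10, Plcg1, the Shc genes, Ripk2, Creb1) chosen after their values were seen. Some genes that this rule or the lists hold are not reported here by name, but they are included in the counts and medians.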

Additional observations from a re-analysis of the deposited data

Results flagged for a closer look

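Among 68 values of members and their exons tested in the embryonic group for a sample far from the others (Dixon's test), 3 had one, and chance gives about 1 in 20. The share of Ntrk3 exon 13 was 3.45% in embryonic replicate 4, above the other embryonic samples at 2.63 to 2.70%. The share of Ntrk3 exon 17 was 2.27% in embryonic replicate 3, below the others. The share of Sort1 exon 19 was 1.85% in embryonic replicate 3, below the others.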

How the results depend on the processing

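The differences of Bdnf, Ntf3, Ntrk2, Ngfr and Sort1 kept their direction and call under all 12 alternatives (no low-value filter, centring, voom on recovered counts, no trend, replicate block, each sample left out). Ntrk3 changed sign with no call, at −0.18 after centring, −0.080 with voom, −0.072 without embryonic replicate 3, −0.01 without adult replicate 1 and −0.06 without adult replicate 3 (range with 1 sample left out −0.072 to 0.088). Over all exons, a plain limma fit per exon called 889 with larger and 822 with smaller shares, against 2310 and 1866, and leaving out a sample gave 1415 (without adult replicate 2) to 3617 (without adult replicate 3) and 1336 to 3177. In the plain fit Ntrk2 exons 14, 15 and 19 and Sort1 exon 18 were called, Ntrk2 exons 1, 4, 5, 6, 16 and 18 and Ntrk3 exon 19 were not, and Ntrk2 exon 20 was (adjusted p = 0.0168), as with log2 shares (0.00348). The log2 ratio difference of Ntrk2 was 2.13 to 2.25 with a sample left out, and that of the Sort1 exon per base −2.41 to −2.11, with exact p of 0.0667 or 0.1, the smallest those designs allow; the Ntrk3 ratio gave 0.69 to 1.07, and 0.89 (p = 0.0286) from exons other than the last. Deviations of same-numbered samples from their group means had correlations of 0.0088, 0.0567 and 0.0405, and the other pairs −0.0475 to 0.0617. For adult replicates 2 and 3 the same-numbered embryonic sample had the highest value. With so few samples this cannot decide whether they share more than a number. Pairing same-numbered samples gave a Ntrk2 ratio difference of 2.14 (exact p = 0.25, the smallest for 3 pairs). Ratios of Bdnf first exons were planned and not run, for lack of exon values. Bdnf in embryonic samples and Ntf3 at both ages, with fewest in adult samples, rest on few reads. Shares above about 30% are resolved only to the rounding limits given.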
